A study of Mus musculus with 4 samples.

Results

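The genes described here are the Eph receptors, their ephrin ligands, the Slit ligands with their Robo receptors, and the netrins with the receptors Unc5, Dcc and neogenin. They were chosen by gene symbol among probe sets that carry exactly 1 symbol, with the brightest probe set standing for a gene, which gave 37 of 22180 genes. The cells were skeletal stem cells (SSCs), isolated from mice 4 to 6 weeks old and kept for 48 h in a 3D gel of collagen. Mmp14 knockout cells (Mmp14-/-, 2 arrays) were compared with wild-type cells (Mmp14+/+, 2 arrays), with the gel, the time in culture and the age range shared by both. Mmp14 encodes a membrane-anchored metalloproteinase that cleaves collagen. The labels do not say how the Mmp14 alleles were deleted, in which cells of the animal, how the SSCs were sorted, or whether the 2 arrays of a group came from separate animals or cultures. The p-values therefore rest on the spread between the arrays of a group, for the gene itself and over all tested genes. That spread may be purely technical.

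Eph receptors are receptor tyrosine kinases that bind ephrins on neighbouring cells. Ephrin-A ligands are held in the membrane by a lipid anchor and ephrin-B ligands by a transmembrane segment, and both the receptor cell and the ligand cell can respond. Slits are large secreted proteins that repel cells through Robo receptors, while netrins are laminin-related secreted proteins that act through Dcc, neogenin and the Unc5 receptors. These families were first described in the guidance of axons, and ephrin-B2 with EphB4 is also known from the exchange of signals between bone-forming and bone-resorbing cells.

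Values are the deposited log2 intensities, so a difference of 1 is a 2-fold change, and each difference is knockout minus wild type. A gene was tested when its mean over the 4 arrays was at least 2.34 log2, the median of all probe sets, and called when its adjusted p was below 0.05 in the limma fit of all 12708 tested genes. Of the 37 guidance genes, 26 passed that filter, and 6 of these were called, 5 higher and 1 lower in knockout. Among all tested genes 11.3% were called, 6.20% higher and 5.12% lower. The share of the 26 guidance genes that were called was 23.1%. The families were chosen with earlier results of these data known, so that share is a description and not a test. All 6 calls were in the Eph and ephrin families, where 16 genes were tested. The other 10 tested genes, of the Slit, Robo and netrin families, gave 0 calls in limma, with 2 at an unadjusted p below 0.05, where 27.5% of all tested genes lay. No test was made of the difference between these families. The median difference of the 26 genes was 0.05 log2, against −0.0041 over all tested genes, and the median absolute difference was 0.203 against 0.175.

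The Mmp14 probe set read 5.77 and 5.84 log2 on the knockout arrays, against 8.77 and 8.83 on the wild-type arrays. The groups also differed in markers of sex: Xist was higher in knockout by 0.73 log2 and the Y-linked Eif2s3y lower by 0.69 (limma adjusted p = 0.0155 and 0.0474), and their part in the results below was not tested. Both gave signal well above the filter on all 4 arrays. Xist read 9.30 and 9.09 in knockout and 8.45 and 8.48 in wild type, and Eif2s3y 5.19 and 5.40 in knockout and 6.18 and 5.79 in wild type. With every probe set in 1 fit neither was called (limma adjusted p = 0.117 and 0.23). Xist was not called without knockout replicate 1 (limma adjusted p = 0.0801), nor Eif2s3y without knockout replicate 1 (0.176), knockout replicate 2 (0.0648) or wild-type replicate 1 (0.107), with the replicate block (0.085) or without the filter (0.0676). The Y-linked Kdm5d and Uty differed by −0.42 and −0.25 and were not called (0.104 and 0.52). Stromal genes were bright in both groups, with Col1a1 at 11.4 to 11.6 log2 and Prrx1 at 10.1 to 10.2 on the 4 arrays. Of 14 stromal markers tested, Cxcl12, Pdgfra, Cd200 and Nt5e were called higher in knockout and Lepr lower, and of these Cd200 alone lost its call on leaving out an array, wild-type replicate 1 (limma adjusted p = 0.0739) or 2 (0.0572). Of 10 endothelial markers, 8 lay under the filter, among them Pecam1, Cdh5, Kdr and Emcn. The list's mean was 2.46 and 2.38 log2 in knockout, against 2.25 and 2.35 in wild type. Of the 2 tested, Vwf was dim and not called (difference 0.09, limma adjusted p = 0.648), while Erg, a transcription factor of endothelium and cartilage, was called, at 7.12 and 7.11 in knockout and 6.17 and 6.07 in wild type (limma adjusted p = 0.00409). Leukocyte markers averaged 2.35 and 2.43 in knockout and 2.56 and 2.46 in wild type, with 0 of 4 tested called in limma and 1 at an unadjusted p below 0.05. The Schwann and neural markers, which matter here because these genes are abundant in nerve tissue, averaged 2.67 and 2.75 in knockout and 2.83 and 2.60 in wild type, with 0 of 4 tested called in limma and 3 at an unadjusted p below 0.05. Among them S100b, a calcium-binding protein gene of Schwann cells that cartilage cells also use, was the brightest, at 4.98 and 5.54 in knockout and 4.55 and 3.93 in wild type (difference 1.02, limma adjusted p = 0.0604). Mbp, a myelin protein gene, differed by 0.45 (limma adjusted p = 0.0501) and Foxd3 by −0.28 (0.178), while Sox10 lay under the filter. The part of such cells in the results was not tested. Muscle markers averaged 2.70 and 2.83 in knockout and 2.55 and 2.70 in wild type. Of 9 such markers 4 were tested, and Pax7, a transcription factor of muscle satellite cells, was called higher by 1.31. Acta1, Ckm and Des were tested and not called (0.34, 0.19 and −0.14). The other 5, Myod1, Myf5 and Myog among them, lay under the filter. Of 9 tested pericyte and smooth muscle markers, Mcam was called higher (0.69), and Rgs5 (−1.07) and Cnn1 (−0.73) lower. Rgs5 was dim, at 2.47 and 2.65 in knockout and 3.46 and 3.80 in wild type. With every probe set in 1 fit Mcam, Rgs5 and Cnn1 were not called (limma adjusted p = 0.11, 0.0976 and 0.11). Nor were Cd200, Nt5e and Erg in that fit (limma adjusted p = 0.157, 0.106 and 0.0587). Cxcl12, Pdgfra, Lepr and Pax7 kept their calls there (limma adjusted p = 0.0334, 0.0338, 0.0306 and 0.0431). Mcam lost its call without knockout replicate 1 (limma adjusted p = 0.0801) and Cnn1 without knockout replicate 2 (0.0579). For osteoclasts 2 of 7 markers passed the filter, and of these 0 were called in limma and 1 had an unadjusted p below 0.05. That was Acp5, the tartrate-resistant acid phosphatase gene, at 4.95 and 5.004 in knockout and 5.38 and 5.69 in wild type (difference −0.56, limma adjusted p = 0.0528). In bulk RNA of this kind, fewer cells of a type and less RNA per cell cannot be told apart.

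Epha1, Epha3 and Efna5 were the 3 called members that changed at least 2-fold, as did 3.51% of all tested genes, and the letters just before their start sites are given here because the first pair moved in opposite directions and the ligand moved with Epha1. The sequences are the 250 bases before the start of the gene, 5′ to 3′ on the gene's strand, from RefSeq on GRCm38.p6: chr6:42373269-42373518, minus strand, for Epha1; chr16:63864176-63864425, minus strand, for Epha3; and chr17:62881318-62881567, minus strand, for Efna5. Capitals mark matches to any of 6 short motifs searched on both strands: CTTTGA (TCF/LEF), GGAATG (TEAD), TGACTCA (AP-1), GGGCGG (GC box), CACGTG (E-box) and the core promoter letters TATAAA.
Epha1: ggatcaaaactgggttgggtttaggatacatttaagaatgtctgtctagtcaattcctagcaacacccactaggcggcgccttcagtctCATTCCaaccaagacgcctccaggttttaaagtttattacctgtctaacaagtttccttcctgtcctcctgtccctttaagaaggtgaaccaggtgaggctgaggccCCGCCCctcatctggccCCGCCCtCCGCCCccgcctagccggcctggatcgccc
Epha3: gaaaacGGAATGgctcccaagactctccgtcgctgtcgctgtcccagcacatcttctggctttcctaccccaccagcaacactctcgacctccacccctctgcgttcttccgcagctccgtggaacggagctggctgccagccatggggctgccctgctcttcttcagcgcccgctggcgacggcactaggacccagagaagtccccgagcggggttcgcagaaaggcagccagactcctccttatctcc
Efna5: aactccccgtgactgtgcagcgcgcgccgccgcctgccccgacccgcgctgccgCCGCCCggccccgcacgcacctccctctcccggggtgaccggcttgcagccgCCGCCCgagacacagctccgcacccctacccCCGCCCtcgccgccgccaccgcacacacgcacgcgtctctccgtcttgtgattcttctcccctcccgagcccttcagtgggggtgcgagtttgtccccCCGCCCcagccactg
Epha1 had 1 match to the TEAD letters and 3 GC boxes, Epha3 had 1 TEAD match and no GC box, and Efna5 had 4 GC boxes, in letters that were 74.8% G or C, against a median of 52.4% over all promoter windows. The TEAD letters were also found 2 times before Epha2 and not before Epha4 or Ephb3. Among all 32851 promoter windows of that length 12.6% held the TEAD letters and 32.7% a GC box. RefSeq gave 37 windows for 32 of the members, and 5 of these windows held the TEAD letters and 27 a GC box. The TCF/LEF letters stood in 2 windows, before Epha2 and Robo4, against 13.8% of all windows. Matches to such short motifs describe letters and do not show that a factor binds there.

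Among the EphA receptors, which mainly bind ephrin-A ligands, 5 of 9 genes were tested, and 3 were called higher and 1 lower in knockout. Over all tested genes 11.3% were called, 6.20% higher and 5.12% lower. Epha1 read 6.44 and 6.35 log2 on the knockout arrays, against 4.21 and 4.22 on the wild-type arrays. The knockout values lay far above the wild-type values, and the replicates of each group were close together. Epha1 rose by 2.18 log2 (limma adjusted p = 0.000775, SE 0.103, n = 2 per group), a 4.53-fold change that ranked 33rd among all tested genes by size of increase. Epha3 went the other way. Its knockout arrays read 5.94 and 5.89 log2, against 7.73 and 7.67 on the wild-type arrays. Epha3 fell by 1.78 log2 (limma adjusted p = 0.000983, SE 0.101, n = 2 per group) or 3.44-fold, and was the 42nd largest decrease among all tested genes. Epha1 and Epha3 kept their calls under all 13 alternative fits tried, with adjusted p of at most 0.03.

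Epha2 and Epha4, receptors with broad ephrin-A binding of which EphA4 also binds ephrin-B ligands, rose by less. Epha2 read 6.52 and 6.54 log2 in knockout and 5.83 and 5.90 in wild type, so that the groups were apart by more than their own spread. The difference was 0.67 (SE 0.101, limma adjusted p = 0.0128), or 1.59-fold. Epha4 read 6.28 and 6.15 in knockout and 5.61 and 5.41 in wild type, again without overlap, and the difference was 0.70 (SE 0.12, limma adjusted p = 0.0181), or 1.63-fold. The Epha2 call was lost without Mmp14 knockout replicate 1 (limma adjusted p = 0.0618) or replicate 2 (0.0565), and the Epha4 call without Mmp14 knockout replicate 1 (0.089) or wild type replicate 2 (0.0613). Epha7 read 4.47 and 4.43 in knockout and 4.24 and 4.22 in wild type. These groups did not overlap, as in 57.8% of all tested genes, and the gap of 0.23 was not called (limma adjusted p = 0.211). The remaining EphA genes, Epha5, Epha6, Epha8 and Epha10, had values of 1.49 to 2.45 log2 on all arrays and were not tested. Signal that close to the median of the array says little about whether they changed.

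Among EphB receptors, which mainly bind ephrin-B ligands, 3 of 4 genes were tested and 1 was called. The share called over all tested genes was 11.3%. Ephb3 read 6.83 and 6.75 log2 in knockout, against 6.16 and 5.90 in wild type. All knockout values lay above the wild-type values, with the wild-type arrays 0.26 apart. In 57.8% of all tested genes the groups did not overlap, in either direction. Ephb3 rose by 0.76 log2 (limma adjusted p = 0.0171, SE 0.127, n = 2 per group), or 1.70-fold. Its call was lost without Mmp14 knockout replicate 1 (limma adjusted p = 0.0748) or wild type replicate 2 (0.0504). Ephb4, the main receptor of ephrin-B2, read 6.66 and 6.70 in knockout and 6.66 and 6.54 in wild type. The groups overlapped, and the 95% interval of the difference ran from −0.18 to 0.34. Ephb6, whose protein has no active kinase, read 5.05 and 5.11 in knockout and 5.04 and 4.77 in wild type. Its difference of 0.17 was not called, with an interval of −0.14 to 0.49. Ephb1 had 2 probe sets, both under the filter, at 2.19 and 2.20 in knockout and 1.95 and 1.92 in wild type for the brighter of them. The dimmer gave a difference of −0.22, opposite in sign to the brighter one. Ephb2 was not analysed here.

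**Figure D1:**
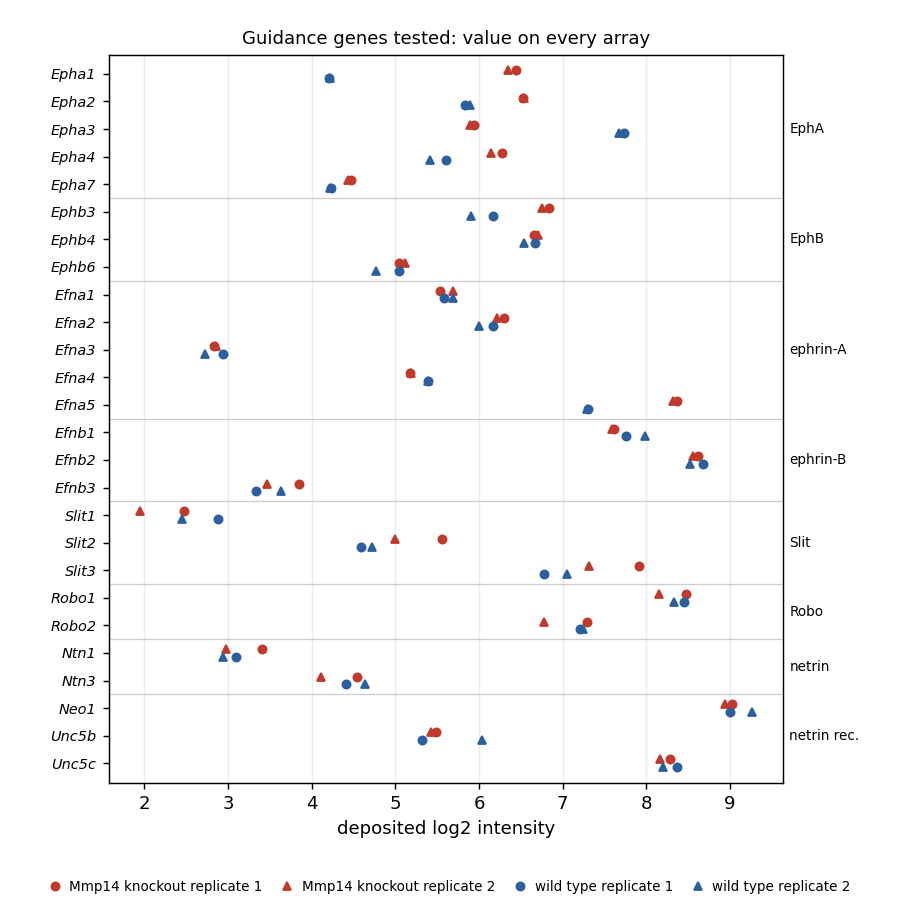
Deposited log2 intensity (horizontal axis) of the 26 guidance genes tested on each of the 4 arrays, with Mmp14 knockout in red above wild type in blue, circles for replicate 1 and triangles for replicate 2. Epha1 and Efna5 lie to the right in knockout and Epha3 to the left, while the knockout circles and triangles of Slit1, Slit2, Slit3 and Robo2 lie more than 0.5 apart.

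The 8 ephrin genes were all tested, and 1 was called, or 12.5%, near the 11.3% of all tested genes. Efna5, which encodes ephrin-A5, read 8.36 and 8.32 log2 in knockout, against 7.30 and 7.30 in wild type. Neither group spread by more than 0.05, and the groups lay a full log2 unit apart. Efna5 rose by 1.04 log2 (limma adjusted p = 0.00305, SE 0.1, n = 2 per group), or 2.06-fold, and stayed called in all 13 alternative fits, with adjusted p of at most 0.0486. Ephrin-A5 can bind most EphA receptors, and is known to bind EphB2 as well.

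The other ephrin-A genes did not pass the test. Efna1 read 5.53 and 5.69 log2 in knockout and 5.58 and 5.69 in wild type, and the groups overlapped. Efna2 read 6.29 and 6.21 in knockout and 6.17 and 6.00 in wild type, a difference of 0.17 with an interval of −0.11 to 0.45. Efna4 read 5.17 and 5.19 in knockout, lower than 5.39 and 5.39 in wild type. These arrays agreed closely within each group, yet the difference of −0.21 had an interval of −0.46 to 0.03 (limma adjusted p = 0.231), since the fit draws each gene's spread toward that of all genes. Efna3 was dimmer, at 2.83 and 2.85 in knockout and 2.94 and 2.73 in wild type. Efna1, Efna3 and Efna4 are next to each other on chromosome 3 with 0 other protein-coding genes between them in the RefSeq annotation, and their differences were −0.02, 0.01 and −0.21.

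The transmembrane ephrins gave 0 calls of 3 in limma, and 0 at an unadjusted p below 0.05. Efnb2, the ligand of EphB4, read 8.62 and 8.55 log2 in knockout and 8.68 and 8.53 in wild type. The groups overlapped, with a difference of −0.01 and an interval of −0.28 to 0.25. Efnb1 read 7.61 and 7.59 in knockout and 7.76 and 7.98 in wild type, which did not overlap, as in 57.8% of all tested genes. Its difference of −0.27 was not called (interval −0.56 to 0.02, limma adjusted p = 0.208). Efnb3 read 3.85 and 3.46 in knockout and 3.34 and 3.63 in wild type, with overlapping groups.

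**Figure D2:**
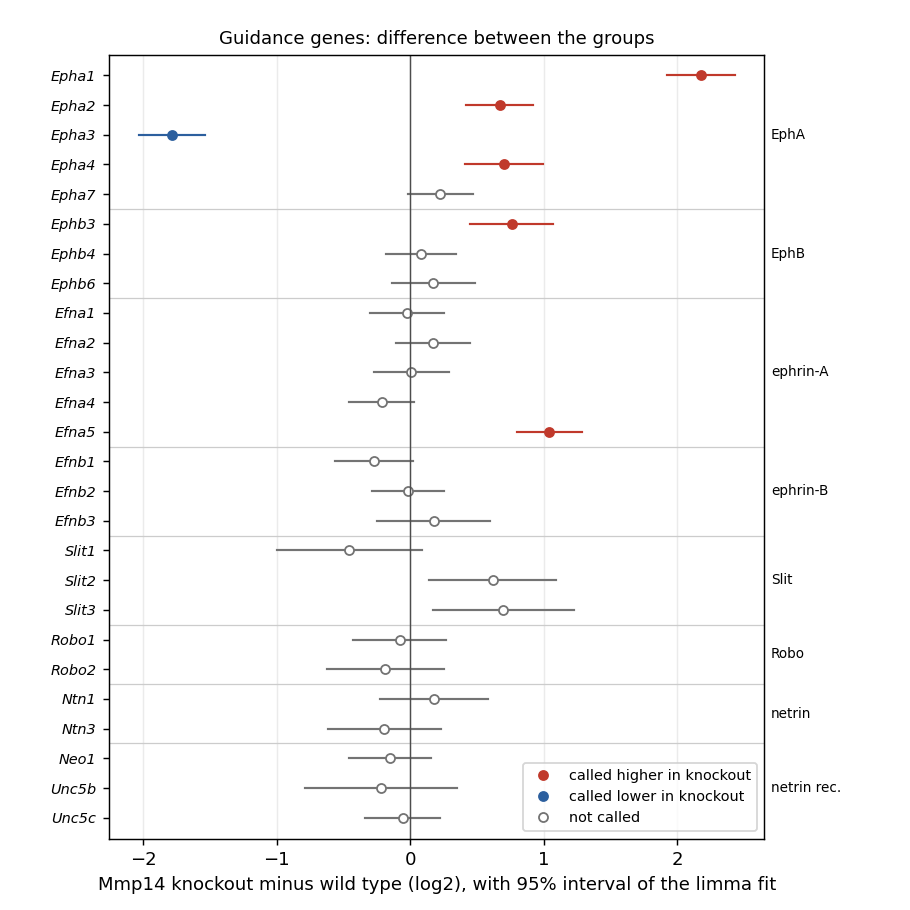
Difference between Mmp14 knockout and wild type (log2, horizontal axis) for the 26 guidance genes tested, with the 95% interval of the limma fit before adjustment. Filled points are called genes, red for higher and blue for lower in knockout; the 6 filled points are Epha1, Epha2, Epha3, Epha4, Ephb3 and Efna5.

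Of the 3 Slit ligands, 2 read higher in knockout and 1 lower, and none reached the threshold. Slit3 read 7.91 and 7.31 log2 in knockout, against 6.78 and 7.05 in wild type, and Slit2 read 5.55 and 4.99 in knockout, against 4.58 and 4.72 in wild type. For both genes all knockout values lay above all wild-type values, but the knockout arrays stood 0.60 and 0.56 apart. In 57.8% of all tested genes the groups did not overlap, in either direction. The difference was 0.70 for Slit3 (SE 0.216, limma adjusted p = 0.0969) and 0.62 for Slit2 (SE 0.195, limma adjusted p = 0.102), with intervals of 0.17 to 1.23 and 0.14 to 1.10. The size depended on which knockout array was kept: without Mmp14 knockout replicate 2, the lower one, the differences were 0.9996 and 0.90 (limma adjusted p = 0.0216 and 0.0221), and without replicate 1 they were 0.40 and 0.34 (0.31 and 0.344). Each of these fits takes the spread from the 2 wild-type arrays and from all genes, so the array kept is assumed to vary like them. Slit1 was dim, at 2.48 and 1.95 in knockout and 2.88 and 2.45 in wild type, and the groups overlapped.

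The Robo receptors through which Slits act were not called. Robo1 read 8.48 and 8.15 log2 in knockout and 8.45 and 8.33 in wild type, and Robo2 read 7.29 and 6.78 in knockout and 7.21 and 7.24 in wild type. Knockout replicate 2 was the lowest array for both genes and knockout replicate 1 the highest, so the knockout values spanned the wild-type values. Their differences were −0.08 (interval −0.43 to 0.27) and −0.19 (interval −0.63 to 0.25). Robo1 and Robo2 lie side by side on chromosome 16, with 0 other protein-coding genes between them. Robo3, a receptor of crossing axons, and Robo4, the endothelial member, had values of 1.48 to 2.34 log2 and were not tested.

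Netrin genes were dim or moderate in both groups. Ntn1, the best studied netrin, read 3.41 and 2.98 log2 in knockout and 3.09 and 2.94 in wild type, and Ntn3 read 4.54 and 4.12 in knockout and 4.41 and 4.64 in wild type. The groups of both genes overlapped. Ntn4, a netrin of basement membranes, had a mean of 2.333 log2, just under the 2.345 needed for testing. It read 2.78 and 2.57 in knockout, against 1.97 and 2.02 in wild type, a difference of 0.68. Without the filter it was called (limma adjusted p = 0.0285), and with every probe set in 1 fit, also unfiltered, it was not (0.133). Its wild-type signal was below the median of all probe sets, so the size of that difference is uncertain. Slit1, at a mean of 2.44, was the member just inside the filter. Ntn5 shared both of its probe sets with another gene symbol and was not analysed here.

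The netrin receptors gave 0 calls of 3 in limma, and 0 at an unadjusted p below 0.05. Neo1, which encodes neogenin, a receptor for netrins and for the repulsive guidance molecules (RGMs), read 9.02 and 8.94 log2 in knockout and 9.004 and 9.26 in wild type. Unc5c, a repulsive netrin receptor, read 8.28 and 8.17 in knockout and 8.36 and 8.20 in wild type. For both the groups overlapped, and the intervals ran from −0.46 to 0.16 and from −0.34 to 0.22. Unc5b read 5.49 and 5.42 in knockout and 5.32 and 6.04 in wild type, where the 2 arrays differed by 0.73, and its interval of −0.79 to 0.35 was the widest of the 26 genes. Unc5a, Unc5d and Dcc, the classical netrin receptor of axons, had values of 1.39 to 2.13 log2 and were not tested.

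The knockout arrays differed from each other across the Slit, Robo and netrin genes. All 10 tested genes of these families read higher on knockout replicate 1 than on replicate 2, by a median of 0.43 log2. The gap was 0.33 to 0.60 for the Slit, Robo and netrin genes themselves. It was smaller for the 3 netrin receptors, at 0.08 for Neo1, 0.07 for Unc5b and 0.11 for Unc5c. The median absolute difference between the knockout arrays was 0.116 over all tested genes, of which 6200 of 12708 were higher on replicate 1. For the 16 tested Eph and ephrin genes the median absolute difference was 0.054, and 10 were higher on replicate 1. On the wild-type arrays 4 of the 10 Slit, Robo and netrin genes were higher on replicate 1. The observation was made after the values were seen, and it was not tested.

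**Figure D3:**
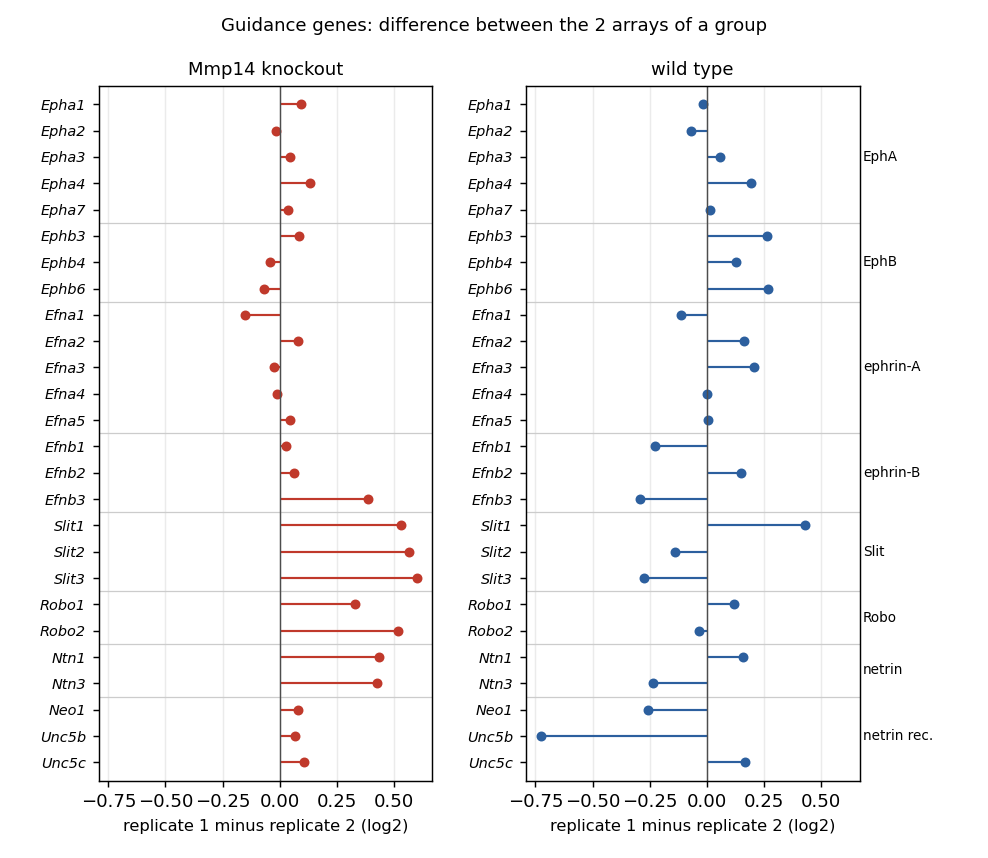
Replicate 1 minus replicate 2 (log2, horizontal axis) for the 26 guidance genes tested, in Mmp14 knockout (left, red) and wild type (right, blue). In knockout the 10 Slit, Robo, netrin and netrin receptor genes all lie to the right of 0, with Slit3 at 0.60 and the netrin receptor genes at 0.07 to 0.11. In wild type these 10 genes lie on both sides.

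Proteins that act beside or below these receptors were covered by a list of 72 partner genes, of which 68 were measured and 57 tested. Of these, 3 were called higher and 6 lower in knockout, or 15.8%, against 11.3% of all tested genes. The lists were chosen with earlier results of these data known, so their shares called are a description and not a test. The median difference of the 57 was 0.03 log2, and 59.6% had groups that did not overlap, against 57.8% of all tested genes.

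The 3 partners that rose were all of the Eph and ephrin list, in which 27 genes were tested and none was called lower. That was 11.1% called, against 11.3% of all tested genes, of which 6.20% were called higher and 5.12% lower. No test was made of the difference between the lists. Anks1, an adaptor that binds the tails of Eph receptors, read 5.61 and 5.53 log2 in knockout and 5.05 and 4.95 in wild type (difference 0.57, limma adjusted p = 0.0234), while its second, dim probe set gave −0.06. Itsn1, an exchange factor for Cdc42, differed by 0.49 and Sh2d3c, another adaptor of Eph receptors, by 0.43 (limma adjusted p = 0.0442 and 0.0472). Sh2d3c was dim, at 3.26 and 3.24 in knockout and 2.82 and 2.82 in wild type. Each of these 3 calls was lost on leaving out single arrays: Anks1 without Mmp14 knockout replicate 1 (limma adjusted p = 0.127), Mmp14 knockout replicate 2 (0.0743) or wild type replicate 2 (0.0778), and Itsn1 and Sh2d3c without any 1 array (0.06 to 0.219). With the mean of its probe sets Anks1 differed by 0.26 and was not called (0.163). Itsn1 and Sh2d3c also lost their calls with the replicate block (0.0835 and 0.0883), without the filter (0.0711 and 0.0797) and under median centring (0.058 and 0.0605), and Sh2d3c under quantile normalization (0.0679) and trend and robust eBayes (0.101). The kinases Src, Fyn, Yes1, Abl1 and Abl2, which relay Eph signals, and the ephrin-cleaving protease gene Adam10 had differences of −0.15 to 0.26 and were not called. Vav3, an exchange factor used by Eph receptors, read 2.96 and 2.28 in knockout and 1.68 and 1.66 in wild type and lay under the filter.

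In the Slit and Robo list 4 of 17 tested partners were called lower and none was called higher. That was 23.5% called, against 11.3% of all tested genes, in a list chosen with earlier results of these data known. Ndnf, a secreted glycoprotein with fibronectin type III domains, was put in this list by choice. Its tie to Slits or Robos was not tested here. Ndnf read 6.50 and 6.53 log2 in knockout, against 8.39 and 8.53 in wild type. With the groups far apart it fell by 1.95 log2 (limma adjusted p = 0.000983, SE 0.107, n = 2 per group), or 3.85-fold, and it kept its call when any 1 array was left out. Cap2, an actin-regulating protein, was lower by 0.85 log2 at a dim 2.71 and 2.72 in knockout and 3.52 and 3.60 in wild type (limma adjusted p = 0.00616). Srgap1, an intracellular protein that binds Robo1, read 5.03 and 5.16 in knockout and 5.79 and 5.86 in wild type, and fell by 0.73 (limma adjusted p = 0.0123). Gpc1, a heparan sulfate proteoglycan that binds Slits, read 7.83 and 7.88 in knockout and 8.50 and 8.53 in wild type, and fell by 0.66 (limma adjusted p = 0.0134). The Srgap1 call was lost without Mmp14 knockout replicate 1 (limma adjusted p = 0.0673), and the Gpc1 call without Mmp14 knockout replicate 1 (0.0767) or replicate 2 (0.0506). Srgap2 and Srgap3, the relatives of Srgap1, did not pass the test, at 0.28 and −0.14.

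In the netrin and RGM list 2 of 13 tested partners were called lower and none was called higher, or 15.4% called against 11.3% of all tested genes. That list too was chosen with earlier results of these data known. The 2 called were Flrt1 and Flrt2, of a family of leucine-rich membrane proteins. Its members Flrt2 and Flrt3 are known ligands of Unc5 receptors. Flrt1 read 6.19 and 5.86 log2 in knockout, against 6.93 and 7.14 in wild type, and fell by 1.01 (SE 0.151, limma adjusted p = 0.0123). Flrt2 read 6.40 and 6.22 in knockout, against 7.02 and 7.24 in wild type, and fell by 0.82 (SE 0.129, limma adjusted p = 0.0143) (limma adjusted p = 0.0544, no call, on dropping Mmp14 knockout replicate 2). In both genes all knockout arrays lay below all wild-type arrays, while 57.8% of all tested genes had groups that did not overlap, in either direction. Neither Flrt3 (0.29) nor Rgmb, an RGM ligand of neogenin (0.21), passed the test.

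**Figure D4:**
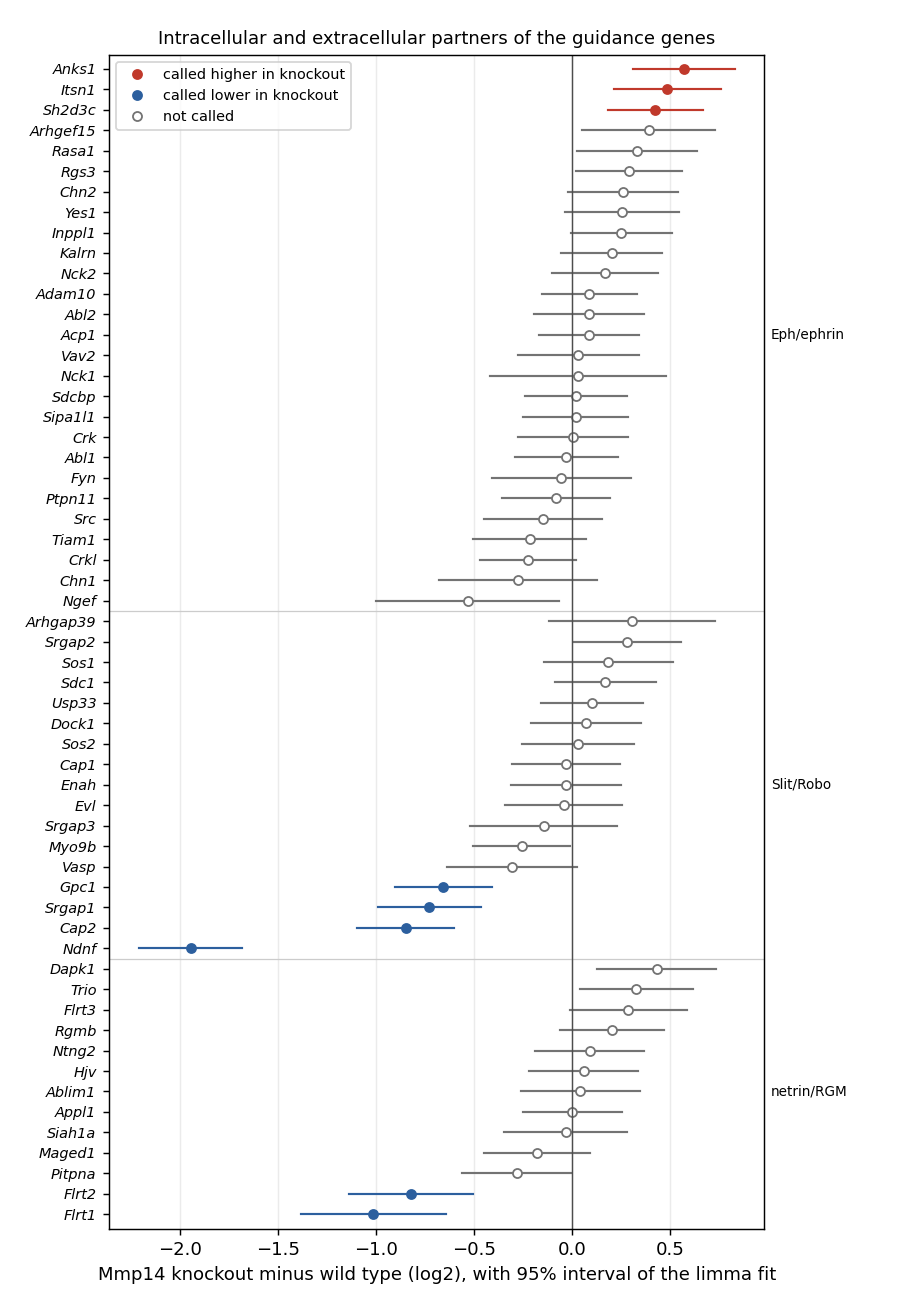
Difference between Mmp14 knockout and wild type (log2, horizontal axis) for the 57 partner genes tested, by list, with the 95% interval of the limma fit before adjustment. The 3 red points (higher) belong to the Eph and ephrin list and the 6 blue points (lower) to the other lists, with Ndnf the lowest at −1.95. The difference between the lists was not tested.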

How the data were processed

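Gene expression was measured on 4 arrays, 2 of Mmp14 knockout and 2 of wild-type skeletal stem cells. The deposited values were log2 intensities for 41345 probe sets. Tools named in the submitters' processing notes are oligo and limma, and the normalization and genome build are not given in the sources used here. The values ran from 0.43 to 12.2 log2, and the number of arrays limits the precision. Of the probe sets, 23521 had exactly 1 symbol in the platform annotation, 1814 several and 16010 none listed. All 37 members were found under the same symbol in the RefSeq annotation of GRCm38.p6, which was used for names, chromosomes and neighbours. Of the members 36 had a single probe set, all 6 called genes among them.

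Two-sided moderated tests of the groups were run with limma 3.58.1 in R 4.3.3 (2 residual degrees of freedom, no block) on genes whose mean reached 2.34 log2, with Benjamini-Hochberg adjustment over all 12708. The fit draws each gene's spread toward that of all tested genes, with 3.99 prior degrees of freedom beside the 2 residual ones. The 95% intervals are from the same fit and are not adjusted. Replicate numbers were not treated as pairs in the main fit. The deviations of same-numbered arrays correlated at −0.04, which with 2 arrays per group cannot show whether they were handled as pairs. The members, partner and marker lists were chosen with earlier results of these data known. The motifs were chosen after the results were known. Values were given per array for every called member and every uncalled member whose mean reached 4.76 log2 (the 75th percentile over probe sets), and for further members and partners chosen after their values were seen. A fit that leaves out 1 array takes the spread from the other group and from all genes. Alternatives covered the filter, block, scaling, variance model, weights, probe set choice, single arrays left out and thresholds.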

Additional observations from a re-analysis of the deposited data

How the results depend on the processing

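The calls of Epha1, Epha3 and Efna5 were made in the main comparison and in all 13 alternative fits, while those of Epha2, Epha4 and Ephb3 were each lost in 3. When all probe sets were fitted together, 188 genes were called in place of 1439, 2 guidance genes higher and 1 lower, and 0 partner genes higher and 1 lower; the adjusted p was then 0.105 for Epha2, 0.129 for Epha4 and 0.126 for Ephb3. Leaving out 1 array gave 687 to 1131 called genes, 2 to 6 guidance genes higher, 0 to 1 partner genes higher and 4 to 7 lower. At an adjusted p below 0.1, 2365 genes were called, and below 0.01, 459, with 2 guidance genes higher and 0 partners higher and 2 lower. With at least a 2-fold change 446 genes were called, with the same counts of guidance and partner genes. Slit3 passed with the stricter filter (adjusted p = 0.0308) and with trend and robust eBayes (0.0316), and Slit2 with the stricter filter (0.0339). With the replicate block 1057 genes were called and 1 partner higher in place of 3, and the 6 guidance calls remained; 1 partner was also called higher without the filter and under median centring. Signs that changed were all of uncalled genes: Efnb2 was 0.038 under quantile normalization, and on leaving out 1 array the values ran from −0.089 to 0.0595 for Efnb2, −0.099 to 0.054 for Efna1, −0.24 to 0.087 for Robo1, −0.45 to 0.071 for Robo2, −0.14 to 0.027 for Unc5c and −0.58 to 0.14 for Unc5b. The causes were not tested. Signal near the array median limits what can be said of the 11 dim members.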
